A study of Mus musculus with 2 samples.

Results

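The Rab27 GTPases Rab27a and Rab27b and 8 of their granule effectors (Mlph, Myrip, Exph5, Sytl1, Sytl2, Sytl4, Sytl5 and Rph3al) were described in RNA of isolated mouse pancreatic islets. They were chosen by gene symbol, 10 of 54532 genes in the deposited count table. All 10 passed the minimum of 10 reads, summed over the libraries, as did 17709 genes in all. Islets came from male C57BL/6 mice, either wild type or carrying a Brsk2 transgene for over-expression of that kinase (the library titled Line20). Mice of both genotypes were 10 to 12 weeks old and had drunk water with doxycycline, a drug used to switch on inducible transgenes, for 4 days at an age of 8 to 10 weeks. Each genotype had 1 library, so no value below has a replicate check and no test between genotypes was made. The sources used here do not name the promoter of the transgene or say whether a library pools mice.

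Rab27 proteins are small GTPases that sit on the membrane of secretory granules and, in their GTP-bound form, recruit effectors that tether the granule to actin motors or to the plasma membrane. The effectors described here are of 3 kinds, and Rab27 has others outside them. The first kind, Slac2 proteins, includes the products of Mlph and Myrip, which link granules to myosins. Synaptotagmin-like proteins (Slp) carry tandem C2 domains and bind the plasma membrane. The last kind is Noc2, a short protein without C2 domains. In beta cells Rab27a marks insulin granules, and the Slp protein granuphilin, the product of Sytl4, docks them at the plasma membrane through syntaxin 1a. In pancreatic acinar cells, Rab27b and Rab3d are found on zymogen granules.

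Reads on genes numbered 20389499 in the wild-type and 16832312 in the transgenic library. Levels are given as CPM, read counts scaled to the TMM-adjusted library size, so that 1 wild-type read equals 0.0497 CPM and 1 transgenic read 0.0586 CPM. Each ratio is transgenic over wild type, and the range in brackets is its exact 95% interval, which covers counting error only. Calls of higher or lower needed a ratio of at least 1.5-fold in either direction together with an interval that left out 1. Brsk2 was higher in the library labelled transgenic, with 732 and 1609 reads and a ratio of 2.59 [2.37, 2.83]. Cell type markers differed between the libraries: 19 of 20 acinar markers were higher and 1 lower, with sums of 12802 and 57057 CPM, and 8 of 13 beta cell markers were lower and none higher, with sums of 256291 and 195071 CPM. The 8 alpha cell markers summed to 19891 and 31483 CPM, with 3 higher and none lower. Of the other lists, 1 of 6 delta, gamma and epsilon cell, 3 of 8 ductal, 5 of 10 fibroblast and mural, 1 of 7 macrophage, 3 of 6 B and plasma cell, 1 of 6 mast cell and 2 of 8 Schwann cell markers were higher. In the same lists 1 fibroblast and mural, 1 macrophage and 2 Schwann cell markers were lower, as were 1 of 9 cytotoxic T and NK cell and 1 of 6 melanocyte markers, and none of 8 endothelial markers was called. In bulk RNA, fewer cells of a type and less RNA per cell cannot be told apart.

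Sytl4 and Mlph were the members called lower, and Rab27b was the member called higher. Over all genes tested, 5.89% were called lower and 7.78% higher by the same rule. The median log2 ratio of the 10 members was -0.17, against 0.01 over all genes tested. The other 7 members had ratios from 0.874 (Myrip) to 1.38 (Sytl2) and were neither. At 2-fold, Mlph was the only member called lower and no member was called higher, against 2.53% and 4.26% of all genes. None of the 3 calls at 1.5-fold ended under 4 other scalings or after centring of ratios by GC content and length.

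The promoter windows of 3 genes are shown because they belong to the most lowered member, to the most abundant member called lower, and to their shared GTPase partner. The windows run from 250 bases before to 50 after an annotated start, in RefSeq on GRCm38.p6, 5′ to 3′ on the strand of the gene. Such windows were found for 8 of the 10 members, 9 windows in all, with no entry for Rab27b and Sytl2. The Mlph window is chr1:90914850-90915149 on the plus strand, and the Sytl4 window is chrX:133981763-133982062 on the minus strand. Rab27a had 2 windows on the plus strand, and the one shown, chr9:73063898-73064197, was picked because it held matches. The other, chr9:73044560-73044859, covers the start of Rab27a in the count table and held none. Capitals mark matches to 5 motifs searched on both strands.
Mlph: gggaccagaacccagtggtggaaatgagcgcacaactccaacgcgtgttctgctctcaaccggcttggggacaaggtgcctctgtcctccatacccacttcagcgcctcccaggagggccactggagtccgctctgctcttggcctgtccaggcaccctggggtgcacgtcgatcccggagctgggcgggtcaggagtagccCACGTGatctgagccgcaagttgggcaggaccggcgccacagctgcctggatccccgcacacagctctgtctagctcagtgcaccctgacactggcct
Rab27a: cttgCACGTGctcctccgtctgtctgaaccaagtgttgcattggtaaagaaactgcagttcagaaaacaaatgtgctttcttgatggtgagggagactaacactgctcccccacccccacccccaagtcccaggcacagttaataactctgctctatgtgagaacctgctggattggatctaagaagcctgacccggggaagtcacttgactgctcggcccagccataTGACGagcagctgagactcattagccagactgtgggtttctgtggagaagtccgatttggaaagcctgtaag
Sytl4: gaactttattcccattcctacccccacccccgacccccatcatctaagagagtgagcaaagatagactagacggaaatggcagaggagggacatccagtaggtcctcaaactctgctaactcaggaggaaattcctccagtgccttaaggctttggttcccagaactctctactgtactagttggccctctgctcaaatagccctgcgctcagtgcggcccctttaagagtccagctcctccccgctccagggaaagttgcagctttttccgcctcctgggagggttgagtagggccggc
The motifs were the E-box CACGTG, bound by basic helix-loop-helix factors, the M-box CATGTG, an E-box form bound by Mitf, the cAMP response element TGACGTCA, its half-site TGACG, which is contained in the full element, and the forkhead core TGTTTAC, bound by factors such as Foxa2. Mlph held an E-box that began 48 bases before the start, at position -48. The Rab27a window shown held an E-box at -246 and a half-site at -22. The other 7 windows of the members, including that of Sytl4, held none of these letters. Of 32851 windows of the same length, 7.15% held the E-box, 14.2% the M-box, 1.79% the full response element, 20.8% its half-site and 3.65% the forkhead core. The matches are descriptions of the sequence and not evidence of binding.

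Of the GTPases, Rab27a was by far the more abundant one. Rab27a (ENSMUSG00000032202, chromosome 9, 73044854 to 73097629, plus strand) had 4075 wild-type and 3065 transgenic reads, or 203 and 180 CPM. Its ratio was 0.887 [0.846, 0.930], which did not pass 1.5-fold. Rab27a also serves cytotoxic lymphocytes and mast cells. The 9 cytotoxic T and NK cell markers summed to 1.69 and 0.528 CPM, with Prf1, Gzma and Ncr1 at 0 reads, and Trac, a T cell receptor chain, was called lower with 15 and 1 reads at 0.0786 [0.00187, 0.511]. The 6 mast cell markers summed to 7.36 and 11.3 CPM, and 4 of them had 0 reads. Nearly all of that sum was Kit, a receptor that other cell types also make, which was called higher with 146 and 191 reads at 1.54 [1.24, 1.93]. The part of either cell type in the Rab27a value was not tested. Rab27b (ENSMUSG00000024511, chromosome 18, 69979131 to 70141605, minus strand) had 38 and 56 reads, or 1.89 and 3.28 CPM. Its ratio was 1.74 [1.13, 2.70], called higher, but the interval itself did not pass 1.5-fold. Among the 1652 genes with a similar number of reads (within 1.5-fold of its sum), 18.4% were called higher, so such a call was common at this depth. The summed acinar markers had a ratio of 4.46 [4.44, 4.48] in the same libraries, and their part in the Rab27b value was not tested. Rab3d, the other GTPase of zymogen granules, had 2076 and 1861 reads and a ratio of 1.06 [0.993, 1.13]. Per length, Rab27b stood at 0.00339 of the Rab27a level in the wild-type and 0.00664 in the transgenic library.

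**Figure D1:**
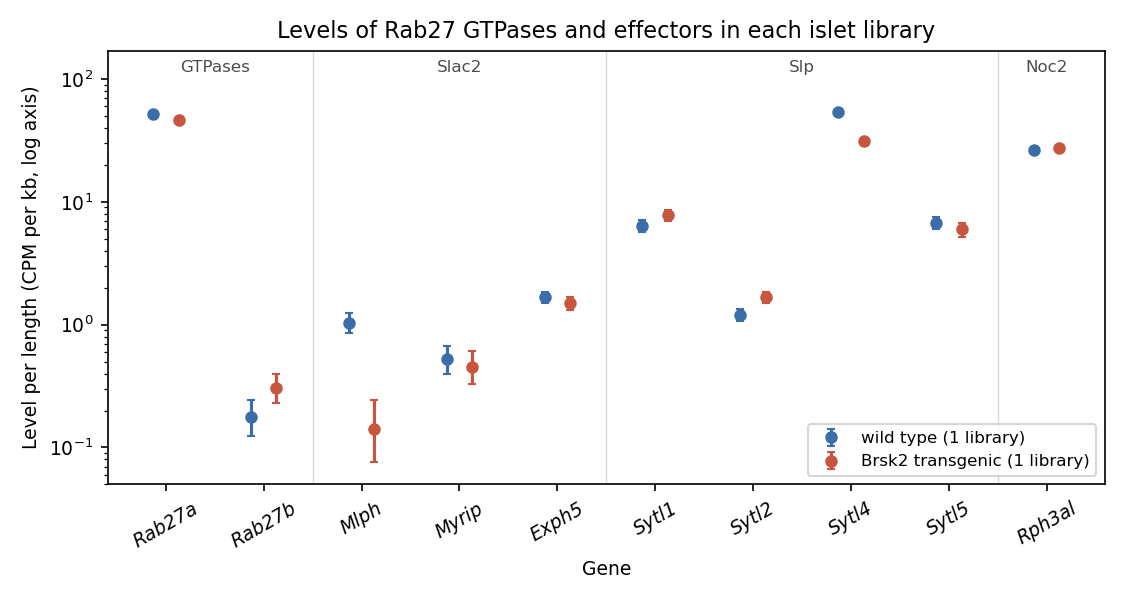
Level per length of each member (CPM per kilobase of merged exons, log axis) in the wild-type and the Brsk2 transgenic library, 1 library each, grouped by role; bars are exact 95% Poisson intervals of the read count. Sytl4 and Rab27a lead in the wild-type library at 54.3 and 52.2 CPM per kb, and Mlph drops from 1.04 to 0.142 CPM per kb.

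Melanophilin, the product of Mlph, is the Slac2 protein that joins Rab27a on melanosomes to myosin Va and was lost in the leaden coat colour mutant of the mouse; in beta cells it has been linked to insulin granule fusion. Mlph (ENSMUSG00000026303, chromosome 1, 90915085 to 90951142, plus strand) had 112 wild-type reads and 13 transgenic reads. These gave 5.57 and 0.762 CPM, a ratio of 0.137 [0.0707, 0.244] and a log2 ratio of -2.87. Of the 17709 genes tested, 44 (0.248%) had a lower ratio when 0 reads in a library were set to a floor of 3 reads. Genes with few wild-type and 0 transgenic reads can be missing from this count. None of the 44 was among the 11390 protein-coding genes of at least 100 reads in sum. Of 1672 genes with a similar number of reads (again within 1.5-fold), 1 had a lower ratio, and 10.0% were called lower. The authors' deposited table of 108 genes listed as different gave Mlph a log2 fold change of -2.86, and no other member was in the authors' deposited table. The smallest absolute log2 fold change among the listed genes was 1.57, and no other member reached it here. The authors' values come from the same libraries.

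The other Slac2 effectors were neither higher nor lower. Myrip (ENSMUSG00000041794, chromosome 9, 120301513 to 120474841, plus strand) encodes Slac2-c, which binds myosin Va and VIIa and anchors insulin granules in cortical actin. It had 58 and 43 reads, 2.88 and 2.52 CPM, and a ratio of 0.874 [0.575, 1.32], an interval wide enough to hold a 1.5-fold lower level. Exph5 (ENSMUSG00000034584, chromosome 9, 53301670 to 53377514, plus strand), which encodes Slac2-b, had 355 and 268 reads, 17.6 and 15.7 CPM, and a ratio of 0.890 [0.757, 1.05]. Ratios between members of 1 library do not depend on the scaling. Reads of Mlph per read of Myrip went from 1.93 to 0.302, a change of 0.157-fold [0.0719, 0.328]. Per read of Exph5 the change was 0.154-fold [0.0778, 0.282]. Per length, Mlph therefore passed from above Myrip, at 2.0 times its level, to below it, at 0.312 times.

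Mlph is best known from melanocytes, and markers of these cells were read beside it. Of 6 melanocyte markers, Tyr, Tyrp1, Mlana and Oca2 had 0 reads in both libraries, and Pmel had 5 and 7. Dct had 138 and 74 reads and was called lower, at 0.633 [0.470, 0.845]. The 6 summed to 7.11 and 4.75 CPM, and most of that sum was Dct. Their part in the Mlph value was not tested. The 5 other protein-coding genes with at least 50 reads whose log2 ratio lay nearest that of Mlph were Gm14391 (0.125), Lrg1 (0.172), Egr4 (0.173), Ltbp2 (0.185) and Ptp4a1 (0.204). With 2 libraries this likeness rests on the ratio alone.

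**Figure D2:**
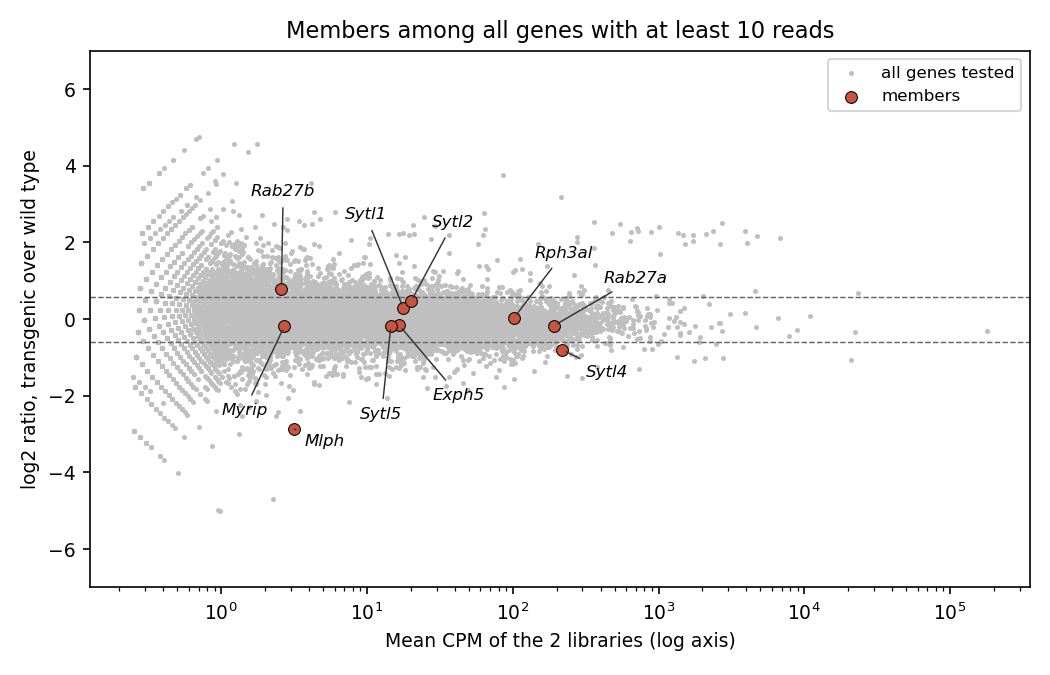
log2 ratio of transgenic over wild type against the mean CPM of the 2 libraries (log axis) for 17709 genes with at least 10 reads (grey) and the 10 members (red); dashed lines mark 1.5-fold, and a gene with 0 reads in a library is drawn at the floor of 3 reads. Mlph lies at -2.87, below nearly all genes of similar level, while Sytl4 lies at -0.80 at a level over 100 CPM in both libraries.

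Among the Slp effectors, Sytl4 was called lower in the transgenic library and its relatives were not. Sytl4 (ENSMUSG00000031255, chromosome X, 133936385 to 133981812, minus strand) encodes granuphilin, which holds insulin granules in a docked state; mice without it have fewer docked granules and secrete more insulin. It had 5600 wild-type and 2720 transgenic reads, or 278 and 159 CPM. The ratio was 0.573 [0.547, 0.600], and the interval itself lay beyond 1.5-fold. Of 611 genes with a similar number of reads, 9 had a lower ratio and 5.24% were called lower. In the same libraries the beta cell markers Slc30a8, Mafa and Slc2a2 had ratios of 0.605, 0.605 and 0.614, and the insulin gene Ins2 had 0.800. The 13 beta cell markers had a median log2 ratio of -0.72, against -0.80 for Sytl4. Their part in the Sytl4 value was not tested. Of 12 granule cargo and matrix genes none was called. Chga, which encodes chromogranin A and had the most reads of them, had a ratio of 1.07 [1.06, 1.07]; their median log2 ratio was 0.06, and their sum had a ratio of 1.06 [1.06, 1.07].

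Sytl1 and Sytl2 had ratios above 1 that did not pass 1.5-fold. Sytl1 (ENSMUSG00000028860, chromosome 4, 133253090 to 133263113, minus strand) encodes Slp1, which is found on zymogen granules of acinar cells and takes part in insulin granule fusion. It had 321 and 333 reads, 16.0 and 19.5 CPM, and a ratio of 1.22 [1.05, 1.43]; what part acinar RNA had in it was not tested. Sytl2 (ENSMUSG00000030616, chromosome 7, 90302252 to 90410719, plus strand) encodes Slp2, whose Slp2-a form was described on glucagon granules of alpha cells. It had 339 and 398 reads, 16.8 and 23.3 CPM, and a ratio of 1.38 [1.20, 1.61]. The alpha cell markers had a median ratio of 1.44 and the glucagon gene Gcg a ratio of 1.59. Whether they bear on the Sytl2 value was not tested. Sytl5 (ENSMUSG00000054453, chromosome X, 9885622 to 9994543, plus strand), encoding Slp5, had 311 and 234 reads, 15.5 and 13.7 CPM, and a ratio of 0.887 [0.746, 1.05]. Against each of these 3 relatives, the reads of Sytl4 changed by 0.468-fold [0.398, 0.551] for Sytl1, 0.414-fold [0.354, 0.483] for Sytl2 and 0.646-fold [0.540, 0.773] for Sytl5.

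Rph3al, which encodes Noc2, was at nearly the same level in both libraries. Noc2 binds Rab27a and Rab3 and is needed for regulated secretion in endocrine and exocrine cells of the mouse. Rph3al (ENSMUSG00000020847, chromosome 11, 75830999 to 75938429, minus strand) had 2032 and 1772 reads, or 101 and 104 CPM. Its ratio was 1.03 [0.965, 1.1], and 0.967 when libraries were scaled to granule cargo genes. The interval did not reach 1.5-fold in either direction, and the spread between animals was not measured. Per read of Rph3al, Sytl4 had 2.76 reads in the wild-type and 1.53 in the transgenic library, a change of 0.557-fold [0.515, 0.603].

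**Figure D3:**
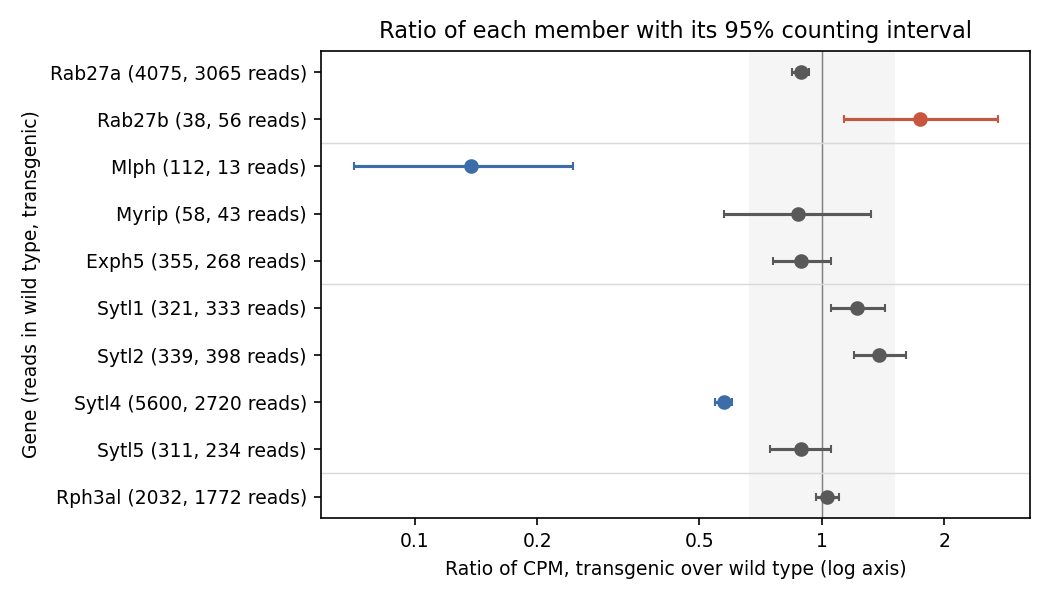
Ratio of CPM, transgenic over wild type (log axis), of each member with its 95% counting interval; the grey band spans 1.5-fold in either direction, blue marks members called lower, red higher. Mlph (0.137) and Sytl4 (0.573) lie left of the band, Rab27b (1.74) to its right, and the other 7 inside it.

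Most of the difference in the summed effectors lay in Sytl4. The 8 effectors together had 9128 and 5781 reads, 454 and 339 CPM, with a ratio of 0.747 [0.723, 0.772]. Without Sytl4 the other 7 summed to 175 and 179 CPM, with a ratio of 1.02 [0.975, 1.07]. Sytl4 made up 61.3% [60.3, 62.4] of effector reads in the wild-type library and 47.1% [45.8, 48.3] in the transgenic one. The share of Rph3al went from 22.3% [21.4, 23.1] to 30.7% [29.5, 31.9], although its own level barely differed. The loss of Mlph reads hardly entered this sum, since Mlph made up 1.23% [1.01, 1.47] and 0.225% [0.120, 0.384] of effector reads. Per read of Rab27a, Sytl4 had 1.37 reads in the wild-type and 0.887 in the transgenic library, a change of 0.646-fold [0.604, 0.690]. Against the same reference, Rph3al changed by 1.16-fold [1.07, 1.26], Exph5 by 1.00-fold [0.847, 1.19] and Sytl5 by 1.00-fold [0.835, 1.20].

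**Figure D4:**
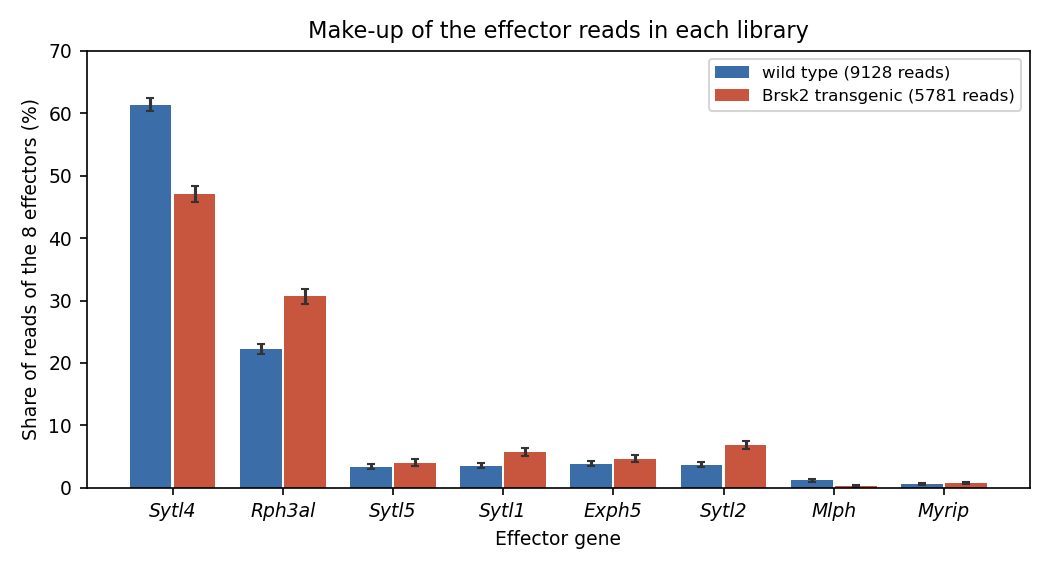
Share of the reads of the 8 effectors (percent) that fell on each effector in the wild-type (9128 reads) and the Brsk2 transgenic library (5781 reads); bars carry exact 95% binomial intervals, and shares of reads are not corrected for gene length. Sytl4 falls from 61.3% to 47.1% while Rph3al goes from 22.3% to 30.7%.

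Levels of different members were compared per kilobase of merged exons. In the wild-type library the order was Sytl4 at 54.3 CPM per kb, Rab27a at 52.2, Rph3al at 26.5, Sytl5 at 6.72, Sytl1 at 6.34, Exph5 at 1.68, Sytl2 at 1.21, Mlph at 1.04, Myrip at 0.521 and Rab27b at 0.177 CPM per kb. Neighbours whose counting intervals overlapped were Sytl4 and Rab27a, Sytl5 and Sytl1, and Sytl2 and Mlph. In the transgenic library Rab27a came first at 46.3 CPM per kb, Sytl4 second at 31.1 and Rph3al next at 27.2. Mlph came last there, at 0.142 CPM per kb, with an interval that overlapped that of Rab27b at 0.307. The intervals of Sytl2 and Exph5, and of Myrip and Rab27b, also overlapped in the transgenic library. The merged exons of Sytl2 span 13941 bases over 19 annotated transcripts, and its longest transcript has 4348 bases. With the longest transcript as the length, Sytl2 stood above Exph5 in the wild-type library (3.88 and 2.96 CPM per kb), and Rph3al stood above Sytl4 in the transgenic one (47.2 and 42.5 CPM per kb).

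Other genes that act with Rab27 were mostly neither higher nor lower. Of 9 genes for activation and lipid attachment of Rab proteins, Tbc1d10a, a GTPase-activating protein of Rab27a, was called lower, with 880 and 481 reads and a ratio of 0.645 [0.576, 0.721]. Madd, the exchange factor that loads Rab27 and Rab3 with GTP, had a ratio of 0.914 [0.861, 0.969]. Chm, the escort protein that presents Rab27a for lipid attachment, had a ratio of 0.931 [0.835, 1.04]. The list had a median log2 ratio of -0.10. Of 4 further Rab27 effectors, none was called: Coro1c, a coronin that binds Rab27a in its GDP form, had a ratio of 0.698 [0.645, 0.755] (0.656 and called lower when scaled to granule cargo genes), Unc13d and Sytl3 had 34 and 32 reads over both libraries, and Rph3a had 0 reads in both.

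The related Rab3 GTPases, which share effectors such as Noc2 with Rab27, went the other way from Sytl4 where they were called. Rab3a had 691 and 967 reads and a ratio of 1.65 [1.5, 1.82], and Rab3c had 144 and 219 reads and a ratio of 1.79 [1.45, 2.23]. Of the 5 genes in the list, Rab3b, Rab3d and Rab37 were neither, and the median log2 ratio was 0.08. Of 9 Rab3 effectors and priming factors at release sites, none was called, with a median of -0.16. Rimbp2, a RIM-binding protein, had the most reads of them over both libraries (3007 and 3408) and a ratio of 1.34 [1.27, 1.40].

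Myosins and fusion proteins were listed beside the effectors, and an effector that binds is named here only for Myo7a, Myo5a and Stx1a. Of 6 myosins, Myo7a, a partner of Myrip, was called higher with 74 and 107 reads at 1.71 [1.26, 2.33], and Myo5c, a myosin V of exocrine glands, was higher with 24 and 63 reads at 3.10 [1.91, 5.18]; the part of acinar RNA in its value was not tested. Myo1e, a class I myosin, was lower with 2414 and 1032 reads, at 0.504 [0.468, 0.543]. Myo5a, the partner of Mlph, was neither, with 985 and 830 reads and a ratio of 0.994 [0.905, 1.09]. Of 11 fusion proteins none was called, with a median log2 ratio of 0.01. Stx1a, the syntaxin that granuphilin binds, had 333 and 317 reads and a ratio of 1.12 [0.960, 1.31].

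Of 5 transcription regulators known to act on genes of this family, Foxa2 was called higher and the others were neither. Crem encodes ICER, a repressor that lowers Rab27a, Rab3a, granuphilin and Noc2 in insulin-secreting cells. Its counts do not separate ICER from the other Crem products. Crem had 594 and 443 reads and a ratio of 0.880 [0.776, 0.997]. Foxa2 had 928 and 1216 reads and a ratio of 1.55 [1.42, 1.69], which became 1.45 and was no longer called when scaled to granule cargo genes. Mitf, the melanocyte regulator, had 128 and 120 reads and a ratio of 1.11 [0.855, 1.43].

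**Figure D5:**
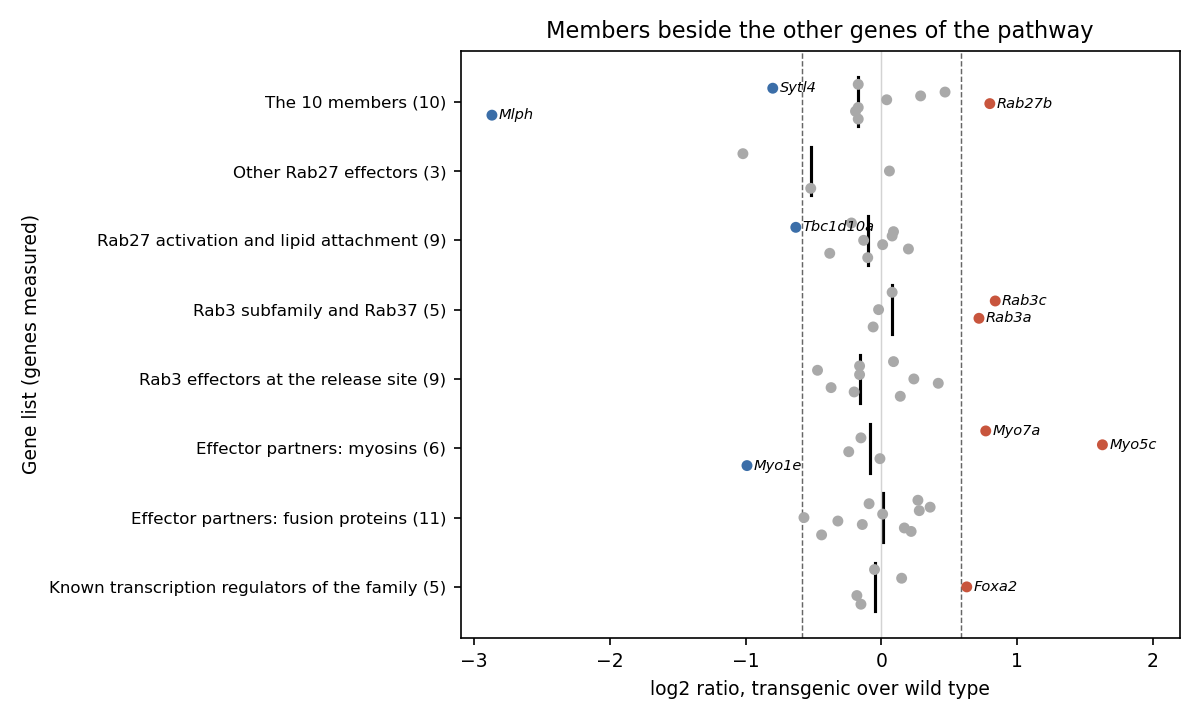
log2 ratio of transgenic over wild type for the 10 members and for the measured genes of 7 further lists, 1 point a gene; black bars are list medians, dashed lines mark 1.5-fold, and named genes are those called higher (red) or lower (blue). The members hold the lowest value drawn, Mlph at -2.87, and none of the 11 fusion proteins or 9 release-site genes is called.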

How the data were processed

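RNA was extracted with Trizol from frozen islets and TruSeq RNA libraries were made from it, per the labels' protocols. The authors deposited raw read counts per Ensembl gene, with coordinates and gene lengths. The sources used here do not name the aligner, counter, genome build or strand setting. Of 54532 IDs, 54495 were found in GENCODE M21 (GRCm38), 98.3% with the same start and end and 98.0% with the merged exon length, so coordinates were read as GRCm38. The authors also deposited a table of listed genes with a normalized count signal, log2 fold changes and p-values; no p-value is used, since each group had 1 library. The submitters' processing notes name DESeq2 1.10.1.

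Counts were scaled by TMM (edgeR 4.0.16, R 4.3.3; factors 0.987 and 1.01). Ratios had exact Clopper-Pearson intervals, levels exact Poisson intervals and ratios within a library exact conditional intervals (15 computed; SciPy 1.17.1). Without molecular identifiers, reads are not independent molecules, so intervals cover counting error only. Genes with 0 reads in a library were set to a floor of 3 reads for medians, for drawing and for counts of genes with a lower ratio than a member. Of the members, Rab27a alone shared exonic bases with another gene, 149 with a pseudogene of 0 and 1 reads. The ratio, its interval and the call were tested on simulated Poisson counts, which hold no spread between animals. The within-library ratios, ranks, list medians and motif search were not tested in this way.

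The members and gene lists were chosen with earlier results of these data known. Named genes were the members, list genes called at 1.5-fold and the most abundant gene of a list without calls; cell type lists are given as counts and sums; partners named for their role (Madd, Chm, Rab3d, Myo5a, Stx1a, Crem, Mitf, granule and cell markers) were chosen after their values were seen. One further result is not reported here. Alternatives were DESeq2 1.42.0 size factors, library totals, TMM without acinar and hormone genes, scaling to granule cargo genes, other minimums and folds, protein-coding genes only and the longest transcript. GC and length centring was added after seeing the data. Figures used matplotlib 3.10.9.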

Additional observations from a re-analysis of the deposited data

How the results depend on the processing

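The direction and call of each of the 10 members held under DESeq2 size factors, library totals, TMM without acinar and hormone genes, scaling to granule cargo genes, and GC and length centring, the last added after the data were seen; the exception is the uncalled Rph3al, which went from 1.03 to 0.967 with granule cargo genes. Of 50 recomputed member ratios, 2 left their counting interval, both with granule cargo genes: Rab27a at 0.834 and Sytl4 at 0.538. That scaling shifts every log2 ratio by -0.090. Medians of the members and of the 7 other lists of the pathway moved by less than the counting error of a typical member under all 4 scalings. Counts changed with the rule by construction. A threshold of 2-fold left 755 higher and 448 lower genes, among them 0 and 1 of the members (Mlph). A rule that the whole interval lie past 1.5-fold left 438 higher and 361 lower genes, with 0 members higher and both Mlph and Sytl4 lower. Depth limits the ratios of Myrip (58 and 43 reads), Rab27b (38 and 56) and Mlph (112 and 13) most. No paired analysis was possible because each genotype had 1 library.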
